A study of Mus musculus with 9 samples.

Results

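The genes described here are 10 markers of blood vessels: Kdr, Flt1, Tek, Tie1, Robo4, Pecam1 and Cdh5 of endothelial cells, and Notch3, Pdgfrb and Rgs5 of the mural cells around them. They were picked by gene symbol, with earlier results of these data known. All 10 were found among 23631 features, of which 19084 were named genes. Pecam1 had 3 probes and the other genes 1 each, 12 of 26423 probes in all, and the brightest probe by its mean over 9 arrays stood for each gene. RNA came from the olfactory mucosa, the nasal lining with the olfactory neurons, of wild-type male C57BL/6 mice aged 6 to 8 weeks. Control mice were given saline over 2 weeks, the D1 group dexamethasone for 1 day and the WK2 group dexamethasone every day for 2 weeks. Dexamethasone is a synthetic glucocorticoid. The labels state an intraperitoneal dose of 1 mg/kg beside the 2 week group. D1 therefore differs from its control in the length of injection as well as in the agent. Of 9 mice per group, 3 samples per group went on arrays after selection for olfactory marker protein. Nothing states that these were separate animals, so p-values measure the spread between samples, which may be technical.

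Endothelial cells line the inside of blood vessels and are held together by junction proteins such as VE-cadherin and PECAM-1. They receive VEGF through the receptors encoded by Flt1 and Kdr and angiopoietins through the receptor encoded by Tek. Pericytes and smooth muscle cells wrap the endothelial tube, are recruited by PDGF through the receptor encoded by Pdgfrb, and use Notch3 to keep their identity. The olfactory mucosa has a rich vascular bed beneath its epithelium. Glucocorticoids are known to act on vessels, where they constrict and tighten them.

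After 2 weeks of dexamethasone Notch3 fell 1.73-fold and was the single one of the 10 to pass the test, which called 1.61% of all features. Its call ended with any 1 array left out. Tie1, Robo4 and Flt1 lay 1.72-fold, 1.57-fold and 1.52-fold below control, each with no overlap between the arrays of the groups, as in 13.8% of all features on the lower side, and did not pass. Pecam1, Tek and Kdr lay within 1.12-fold of control, while Rgs5 varied more between arrays of 1 group than between groups. After 1 day, 0 of the 10 passed.

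Promoters of 7 of the 10 genes were taken from RefSeq's promoter table for mouse assembly GRCm38.p6. The table held no entry for Pecam1 or Cdh5, and Pdgfrb was left out of the search by a filter on chromosome. The 250 bases before the listed start are shown for the 4 genes whose WK2 arrays all lay below all control arrays, so that their sequences can be set against each other. Capitals mark matches on either strand to CNGGAAG, which holds the GGAA core bound by ETS factors, a family known for its role at endothelial promoters. Tie1 lies at chr4:118489850-118490099 on the minus strand, Robo4 at chr9:37401722-37401971 on the plus strand, Flt1 at chr5:147726012-147726261 on the minus strand and Notch3 at chr17:32166891-32167140 on the minus strand.
Tie1: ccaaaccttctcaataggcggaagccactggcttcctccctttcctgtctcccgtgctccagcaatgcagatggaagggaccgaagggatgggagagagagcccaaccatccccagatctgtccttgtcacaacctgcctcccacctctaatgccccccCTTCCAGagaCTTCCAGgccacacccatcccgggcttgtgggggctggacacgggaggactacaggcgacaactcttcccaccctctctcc
Robo4: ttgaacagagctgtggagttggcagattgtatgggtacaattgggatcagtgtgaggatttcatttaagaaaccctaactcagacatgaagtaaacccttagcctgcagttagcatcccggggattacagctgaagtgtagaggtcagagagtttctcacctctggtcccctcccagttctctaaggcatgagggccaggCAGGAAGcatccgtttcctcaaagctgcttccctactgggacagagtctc
Flt1: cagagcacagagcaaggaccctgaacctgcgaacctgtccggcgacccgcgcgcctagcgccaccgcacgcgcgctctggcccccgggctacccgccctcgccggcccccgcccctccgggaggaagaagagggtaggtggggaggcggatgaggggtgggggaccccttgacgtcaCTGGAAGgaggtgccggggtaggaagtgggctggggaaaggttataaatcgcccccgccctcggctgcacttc
Notch3: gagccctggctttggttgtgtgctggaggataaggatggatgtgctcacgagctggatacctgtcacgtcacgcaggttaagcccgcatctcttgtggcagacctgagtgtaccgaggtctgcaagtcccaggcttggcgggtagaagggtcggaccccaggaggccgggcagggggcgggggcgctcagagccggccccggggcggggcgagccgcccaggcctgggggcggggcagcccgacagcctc

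Tie1 held 2 such matches, with first bases at positions -91 and -81 from the start, both on the reverse strand. Robo4 held 1 at position -50 and Flt1 1 at position -73. Notch3, Kdr, Tek and Rgs5 held 0 in their windows. Of 32841 promoter windows of the same length, 26.6% held at least 1 match, so a match in 3 of 7 genes is a description of these letters and not of binding. The letters GTGGGAA, of the Notch effector RBPJ, were in the windows of Kdr and Tie1 and in 5.41% of all windows. The palindromic element of the glucocorticoid receptor was in 0 of the 7 windows and in 0.387% of all. The form NGATAAG of GATA factors was in the windows of Notch3 and Rgs5 and in 6.52% of all. The matches do not overlap each other.

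Values are array intensities on the authors' linear scale, and differences are on a log2(intensity + 50) scale, which understates the change of dim genes. The median intensity of an array lay between 1202 and 1447, and the correlation between arrays of 1 group over all features was 0.977 to 0.993. The total intensity of all probes was highest in WK2 replicate 3, at 2.31e+08. It was 2.01e+08 and 2.02e+08 in WK2 replicates 1 and 2, 1.90e+08 to 1.95e+08 in control and 1.91e+08 to 1.96e+08 in D1. In WK2 the median over all features lay 0.14 above control and 0.10 above D1, and in D1 it lay 0.03 above control. The neuron marker Omp stood at 300267 to 540038 over the 9 arrays and Cyp2g1, an enzyme of sustentacular cells, at 373325 to 677700. The limma test, with Benjamini-Hochberg adjustment over all 23631 features, called 0.0% of features in D1 against control, 1.61% in WK2 against control and 0.0931% in WK2 against D1 at an adjusted p under 0.05. In bulk RNA, fewer cells of a type and less RNA per cell cannot be told apart.

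**Figure D1:**
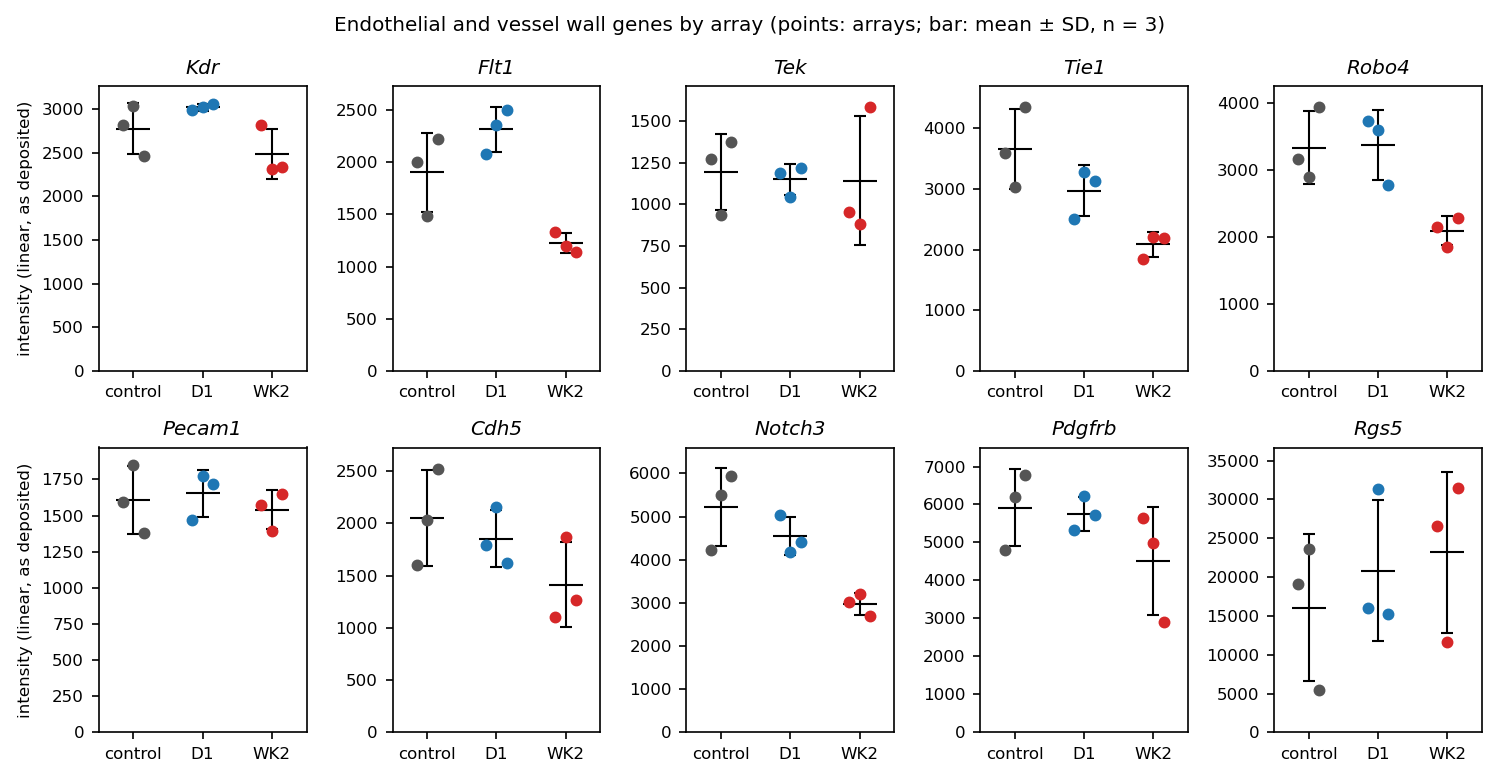
Intensity of each of the 10 genes (y axis, linear, from 0) in the control, D1 and WK2 groups (x axis), with 1 point per array and the mean ± SD of 3 arrays as bars. WK2 arrays of Flt1, Tie1, Robo4 and Notch3 lie below every other array of the same gene, while Rgs5 spans 5456 to 23638 within control alone.

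The receptors for VEGF come first among the endothelial genes. Flt1, the VEGF receptor 1 that binds VEGF-A tightly and can act as a decoy, stood at 1999, 1485 and 2227 in control replicates 1, 2 and 3, at 2080.0, 2360.2 and 2504 in D1 and at 1331, 1201 and 1142 in WK2. The WK2 arrays were the 3 lowest, and D1 and control overlapped. Against control, WK2 differed by -0.60 ± 0.17 (SE) on the log2 scale, with an adjusted p of 0.0746 in limma. Against D1 it differed by -0.89 ± 0.17, the largest difference from D1 among the 10 genes, with an adjusted p of 0.107.

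Kdr, the VEGF receptor 2 that carries most of the growth signal in endothelium, stood at 2823, 3043 and 2469 in control, at 2987, 3024 and 3065 in D1 and at 2815, 2310.0 and 2337 in WK2. Control overlapped with both other groups, while all WK2 arrays lay below all D1 arrays. The difference between WK2 and control was -0.16, with a 95% interval of -0.48 to 0.16, and that between WK2 and D1 was -0.28 ± 0.14 (SE). Neither passed.

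The receptors of the angiopoietin pathway are Tie1 and Tek. Tie1, a receptor without a ligand of its own that partners with the angiopoietin receptor, stood at 3597, 3028 and 4345 in control, at 2496, 3275 and 3136 in D1 and at 1851, 2200.3 and 2197 in WK2. All WK2 arrays lay below all others, with D1 in between and overlapping with control. WK2 differed from control by -0.79 ± 0.18 (SE), with an adjusted p of 0.0551 in limma, and from D1 by -0.50 ± 0.18 with an adjusted p of 0.2005. Tek, the angiopoietin receptor itself, stood at 1274, 936 and 1376 in control, at 1187, 1044 and 1220.4 in D1 and at 957, 882 and 1588 in WK2. Its groups overlapped in every comparison, WK2 replicate 3 being the highest of the 9 arrays. The difference between WK2 and control was -0.09, with a 95% interval of -0.60 to 0.42.

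Robo4, the endothelial member of the roundabout receptors, which binds UNC5B and steadies vessels, stood at 3161, 2889.8 and 3942 in control, at 3728, 3596 and 2766 in D1 and at 1854 to 2273 in WK2. Control and D1 overlapped, and every WK2 array lay below both. WK2 differed from control by -0.65 ± 0.18 (SE; limma adjusted p = 0.0676) and from D1 by -0.67 ± 0.18 (adjusted p = 0.145), while D1 differed from control by 0.01 ± 0.18.

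The junction genes overlapped between groups. Pecam1 encodes CD31, which sits at endothelial contacts and also on platelets and leukocytes. It stood at 1592, 1853 and 1382 in control, at 1466, 1771 and 1721 in D1 and at 1575, 1392 and 1653 in WK2, with a difference of -0.06 between WK2 and control and a 95% interval of -0.41 to 0.30. Its 2 dimmer probes, with mean intensities of 305 and 254, gave -0.30 and -0.35 for that difference. Cdh5 encodes VE-cadherin, the adhesive core of the endothelial junction. It stood at 1599, 2035 and 2522 in control, at 1789, 2155 and 1624 in D1 and at 1107, 1871 and 1265 in WK2. WK2 replicate 2 lay among the control arrays and the other WK2 arrays below them. The difference was -0.53 ± 0.23 (SE), with an adjusted p of 0.157 in limma.

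Among the mural genes Notch3 fell. This receptor, which marks pericytes and smooth muscle of small arteries, stood at 4219, 5510.3 and 5935 in control, at 5043, 4188 and 4411 in D1 and at 3022, 3197 and 2708 in WK2. Every WK2 array lay below every control and D1 array. The mean was 5221 ± 894 (SD, n = 3) in control and 2976 ± 248 in WK2, a log2 difference of -0.79 ± 0.17 (SE) with an adjusted p of 0.0499 in limma. WK2 differed from D1 by -0.60 ± 0.17 with an adjusted p of 0.149. The call against control ended with any 1 of the 9 arrays left out, at adjusted p = 0.0550 to 0.148 in limma, with differences of -0.93 to -0.69. It also ended with a pseudocount of 16 (0.0607) with trend and robust moderation (0.0532) and with control and WK2 fitted alone (0.112). In that last fit limma called 0 of all features, with 5782 at an unadjusted p under 0.05, so every call against control named here ended in it.

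Pdgfrb, the receptor through which PDGF-B recruits pericytes, stood at 4789.9, 6193 and 6777 in control, at 5333, 6214 and 5712 in D1 and at 5635, 4996 and 2913 in WK2. WK2 replicate 3 was the lowest of all 9 arrays and the other WK2 arrays lay within the range of control. The difference between WK2 and control was -0.43 ± 0.24 (SE; limma adjusted p = 0.251). It was -0.14 without WK2 replicate 3. Rgs5, a regulator of G protein signalling abundant in pericytes, stood at 19153, 23638 and 5456 in control, at 15985, 31315 and 15228 in D1 and at 26547, 11589 and 31442 in WK2. The highest control array was 4.33 times the lowest, where that ratio was at most 1.58 for the other 9 genes in control. Rgs5 had the largest differences on the higher side, 0.54 ± 0.56 (SE) in D1 and 0.65 ± 0.56 in WK2, with 95% intervals of -0.71 to 1.78 and -0.59 to 1.90. Without control replicate 3 they were -0.11 and 0.0023.

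**Figure D2:**
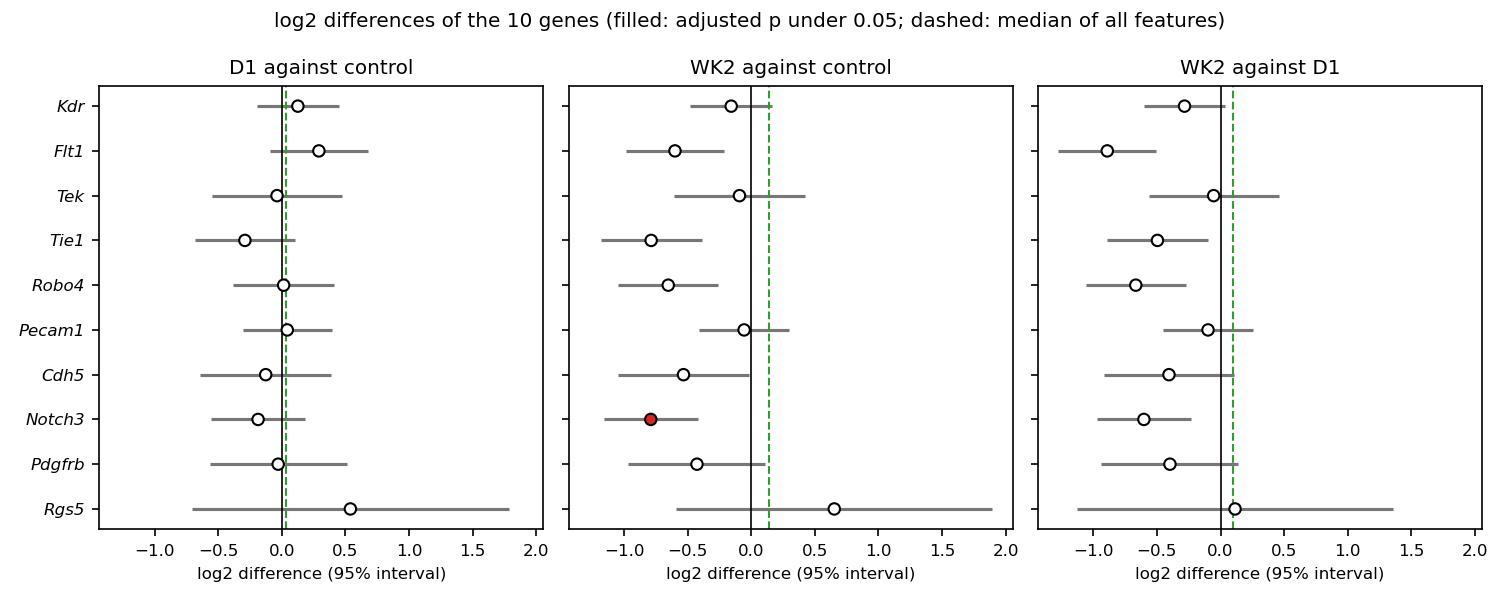
Log2 difference (x axis) of each of the 10 genes (y axis) in the 3 comparisons, with 95% intervals from limma; a filled point passed an adjusted p of 0.05 and the dashed line is the median of all features. Notch3 at -0.79 in WK2 against control is the single filled point, and the interval of Rgs5 is the widest in each panel.

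Set against the background of all features, the 10 genes differed little from control at day 1. Their median log2 difference was -0.01 beside 0.03 over all features, with 5 above and 5 below control, where 43.4% of features lay below. In 0 of 10 genes did the D1 and control arrays separate, where 4.92% of all features separated with D1 higher and 5.19% with D1 lower. Limma called 0 features in this comparison, with 473 features, 2.0%, and 0 of the 10 genes at an unadjusted p under 0.05 (0.821% of features on the lower side).

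At 2 weeks the median of the 10 genes was -0.48 against control, beside 0.14 over all features, and 9 of 10 lay below control, as did 37.3% of features. In 4 of 10 genes every WK2 array lay below every control array, as in 13.8% of features. Limma called 1 of 10 lower and 0 higher, where it called 1.18% of features lower and 0.432% higher. At an unadjusted p under 0.05 there were 5 of 10 genes on the lower side, beside 12.4% of features (29.7% in either direction). Over all features 102 were called higher and 278 lower, and under median centring 221 and 1324. Under quantile normalization, which brought the median over all features to 0.01, the median of the 10 genes was -0.50. Against D1 the median was -0.40 beside 0.10, and 9 of 10 genes lay below D1, as did 38.4% of features. In 5 of 10 genes every WK2 array lay below every D1 array, as in 12.6% of features. These were Flt1, Tie1, Robo4, Notch3 and Kdr, and 0 of the 10 passed the limma test, which called 0.0635% of features lower and 0.0296% higher. There were 4 of 10 on the lower side at an unadjusted p under 0.05, as were 10.2% of features. Both comparisons share the WK2 arrays. Since the 10 genes were chosen with earlier results of these data known, their counts beside those of all features are a description and not a test.

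Pairs of receptors that share a pathway or a cell type were compared within each array, which removes any scaling of the array as a whole. This comparison of 3 pairs was chosen after the values were seen. The log2 ratio of Tie1 to Tek changed by -0.69 in WK2 against control, and the groups did not overlap. The exact two-sided permutation p of 0.1 is the smallest that 3 against 3 arrays allow. The ratio of Flt1 to Kdr changed by -0.44 against control with overlap (exact permutation p = 0.3) and by -0.61 against D1 without overlap (exact permutation p = 0.1). The ratio of Notch3 to Pdgfrb changed by -0.36 against control, with overlap (exact permutation p = 0.4). After Benjamini-Hochberg adjustment over the 9 tests of this family, the smallest p was 0.45. As no test could give a p under 0.1, these p-values cannot decide whether a ratio changed.

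The wider endothelial list, of 35 measured markers besides the 10 genes, had a median of -0.17 in WK2 against control, with 12 above and 23 below. Limma called 2 of the 35 lower and 0 higher. As the background of this and the following lists, limma called 1.18% of all features lower and 0.432% higher in WK2 against control. Of all features, 37.3% lay below control in WK2 and 43.4% in D1. Sox17, a transcription factor of arterial endothelium, fell 2.14-fold (log2 -1.10 ± 0.17 SE, adjusted p = 0.0386, limma). It stood at 2044, 1400.3 and 1937 in control and at 732, 871 and 804 in WK2. Arhgef15, a signalling gene expressed in endothelium, fell 1.91-fold, with a log2 difference of -0.94 ± 0.15 (SE) and an adjusted p of 0.0398 in limma. Its mean was 372 ± 60.5 (SD, n = 3) in control and 170.2 ± 25.5 in WK2. Ushbp1 lay at -0.56 (adjusted p = 0.0838, limma) and did not pass. Of the 35 markers, 3 lay above control without overlap between arrays and 7 below. Of all features, 23.8% did so on the higher side and 13.8% on the lower. Leaving out 1 array ended the call of Sox17 except for control replicate 2 or WK2 replicate 1 (adjusted p up to 0.148), and that of Arhgef15 except for WK2 replicate 1 (up to 0.148). In D1 the list had a median of 0.08, with 23 above control and 0 called.

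The list of pericyte and smooth muscle genes did not share the difference of Notch3. Of 24 measured genes, 14 lay above and 10 below control in WK2, with a median of 0.03 and 0 called. Foxs1, a forkhead gene of pericytes, lay at 0.60 (adjusted p = 0.0627), Vtn, vitronectin, at 0.57 (0.0718) and Lmod1, a smooth muscle leiomodin, at -0.41 (0.141), all in limma. Vtn stood at 8536, 10540.3 and 7309 in control and at 12706, 12642 and 13506 in WK2. In D1, 18 of the 24 lay above control with a median of 0.07.

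Genes that supply or modify the signals of these receptors were mixed. Of 17 VEGF and angiopoietin pathway genes, 1 was called lower and 0 higher in WK2 against control, with a median of -0.05. Vegfd, a ligand of the lymphatic VEGF receptor and in some species of VEGF receptor 2, fell 1.73-fold, with a log2 difference of -0.79 ± 0.16 (SE) and an adjusted p of 0.0489 in limma. It stood at 993, 1183 and 1349 in control and at 625, 756 and 588 in WK2. That call ended with any 1 array left out (adjusted p = 0.0552 to 0.148, limma). Angpt1, the agonist of Tek made by mural cells, stood at 1711, 2427 and 1451 in control and at 2571, 3116 and 5871 in WK2. Each WK2 array of Angpt1 lay above each control array, a separation that 23.8% of the features tested showed towards higher values. WK2 replicate 3 stood furthest from control. The difference was 0.97 ± 0.30 (SE), with an adjusted p of 0.0826 in limma. Apln, apelin, lay at 0.66 (0.132).

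Among 11 genes of the PDGF and Slit/Robo pathways 0 were called in WK2, with a median of -0.10. Pdgfb, the endothelial ligand of the receptor of pericytes, stood at 1929.9, 2105 and 2373 in control and at 1673, 998 and 911 in WK2, a difference of -0.86 ± 0.22 (SE; limma adjusted p = 0.0631). Unc5b, the partner of Robo4, lay at -0.79 (0.0797) and Pdgfc at -0.31 (0.195). Among 23 Notch pathway genes 0 were called, 9 lay above and 14 below control, and the median was -0.09. Hes1, a transcriptional target of Notch signalling, stood at 6003, 7458 and 5695 in control and at 4387, 3905 and 2516 in WK2, without overlap, at -0.85 ± 0.22 (adjusted p = 0.0631). Adam17, a sheddase, lay at 0.57 (0.0731) and Rfng, a fringe enzyme that modifies Notch, at -0.64 (0.102).

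Junction and basement membrane genes were read next. In bulk RNA of the mucosa the values of these lists cannot be placed in vessels. Of 19 junction and leukocyte adhesion genes 1 was called lower and 0 higher in WK2, with a median of 0.00. Jup, plakoglobin, which links cadherins to the cytoskeleton in endothelium and in epithelium alike, fell 2.22-fold (log2 -1.15 ± 0.22 SE, adjusted p = 0.0443, limma). Ptprb, a phosphatase of VE-cadherin and Tek, lay at -0.51 (0.1001) and F11r at -0.37 (0.132). Of 13 basement membrane genes 11 lay below control and 2 above, with a median of -0.35 and 1 called. Col18a1, the source of endostatin, fell 1.98-fold (log2 -0.98 ± 0.18 SE, adjusted p = 0.0422, limma), while Agrn lay at -0.75 (0.0593) and Lama5 at -0.96 (0.0685). The calls of Jup and Col18a1 were kept without WK2 replicate 1 and lost without each of the other 8 arrays (adjusted p up to 0.148, limma). Lymphatic markers, 7 measured, had a median of -0.24 and 0 called. Tbx1 lay at -0.78 (0.0551), Flt4 at 0.44 (0.154) and Pdpn at 0.61 (0.194).

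**Figure D3:**
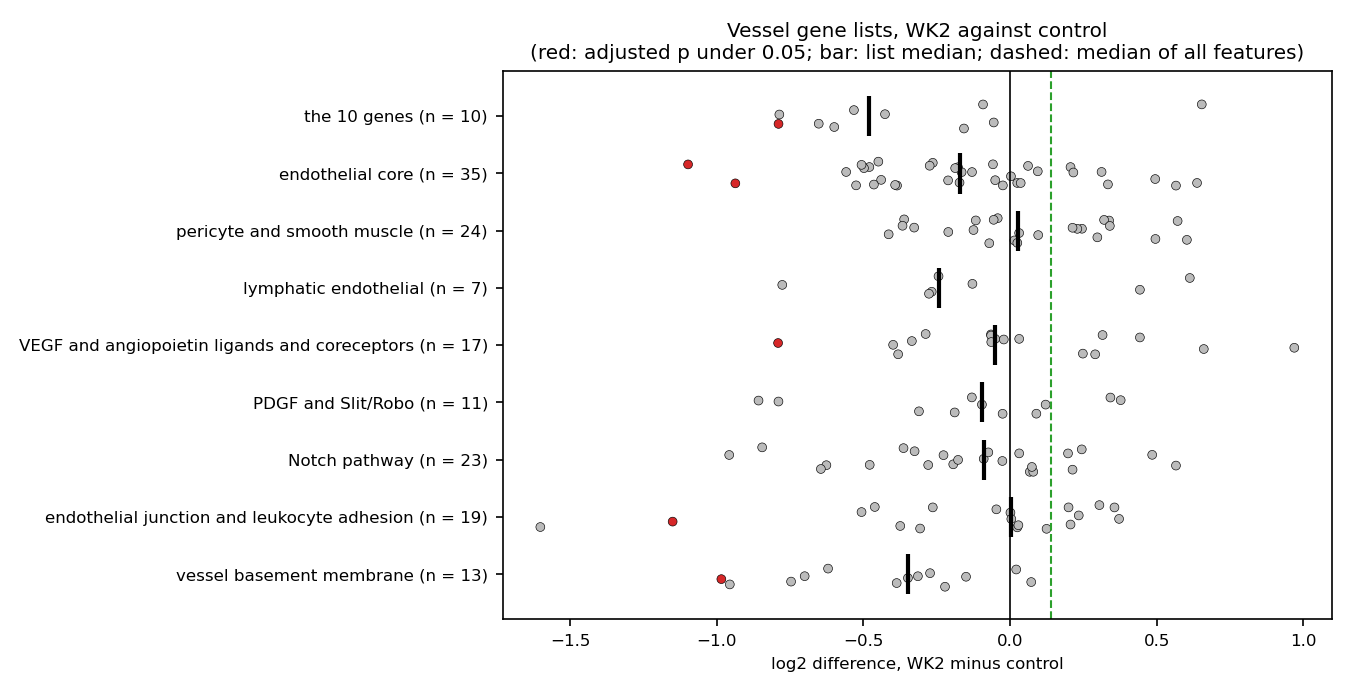
Log2 difference between WK2 and control (x axis) of every measured gene of each list (y axis), 1 point per gene, with the list's median as a bar and the median of all features, 0.14, as a dashed line; red points passed an adjusted p of 0.05. The median of the 10 genes is -0.48 and that of the pericyte and smooth muscle list is 0.03.

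Markers of other cells were read on the same arrays, since Pecam1 and Pdgfrb are also expressed outside vessels. Sums were not divided by the total intensity of the array, which was higher in each WK2 array than in each control array. In WK2 the summed intensity of 10 fibroblast genes was 455652 to 796879, above the control range of 387938 to 408034 and the D1 range of 312300 to 331434, with 6 of 10 genes above control. The list's median log2 difference was 0.09, below the 0.14 of all features, and Dcn alone, decorin, made up 461111 of the sum in WK2 replicate 3. The sum of 9 sustentacular and gland genes was 2896328 to 3051221 in WK2 and 2014065 to 2248560 in control, with 7 of 9 above and a median of 0.38. The other 2, Aqp5 (-0.68) and Muc5b (-0.77), lay below control without overlap. Sums of 7 erythroid genes (104733 to 236867 in control, 152200.0 to 317056 in WK2) and of 14 leukocyte genes (121599 to 280028 and 187973 to 260938) overlapped between groups. So did those of 9 platelet genes (9253 to 28245 and 19560.2 to 24427). In control replicate 2, Hbb-b1 alone made up 169509 of the erythroid sum and S100a9 143987 of the leukocyte sum. The leukocyte list had 6 genes above and 8 below control in WK2, with a median of -0.18. The sum of 10 olfactory neuron genes was 1390670 to 1507808 in WK2, above the control range of 1166739 to 1341820 and overlapping with the D1 range of 1033060 to 1421550. Of these 10 genes 6 lay above and 4 below control, with a median of 0.16. Omp, the marker by which samples were selected, stood at 300267 to 411529 in control and at 478900 to 540038 in WK2, while Gnal (-0.44), Adcy3 (-0.58) and Gap43 (-0.27) lay below control without overlap. The sum of the 35 endothelial markers was 202585 to 229090 in control and 193177 to 208921 in WK2, with overlap. Plvap alone made up 117424 of it in control replicate 1 and 101777 in WK2 replicate 3. Whether shifts in these cell types had a part in the differences of the 10 genes was not tested.

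By Pearson's r over the 9 arrays, Tgfb1 (0.98), a growth factor that acts on endothelial and mural cells, was most like the average of the 10 genes after each was centred and scaled. Tspan4 and Zbtb20 (both 0.97), Col23a1, Ncmap, Slc25a1 and Fbln2 (0.96 for each of these 4) and Paqr4 (0.95) followed. The arrays share their groups, and after group means were subtracted r was 0.86 for Tgfb1 and 0.55 to 0.76 for the other 7. All 8 lay below control in WK2, from -1.13 for Tspan4 to -0.36 for Slc25a1, a direction that the choice by likeness favours and that is no further result. The scaled average of the 10 genes was 0.20 to 0.64 over the 6 control and D1 arrays and -0.94 to -0.61 in WK2.

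**Figure D4:**
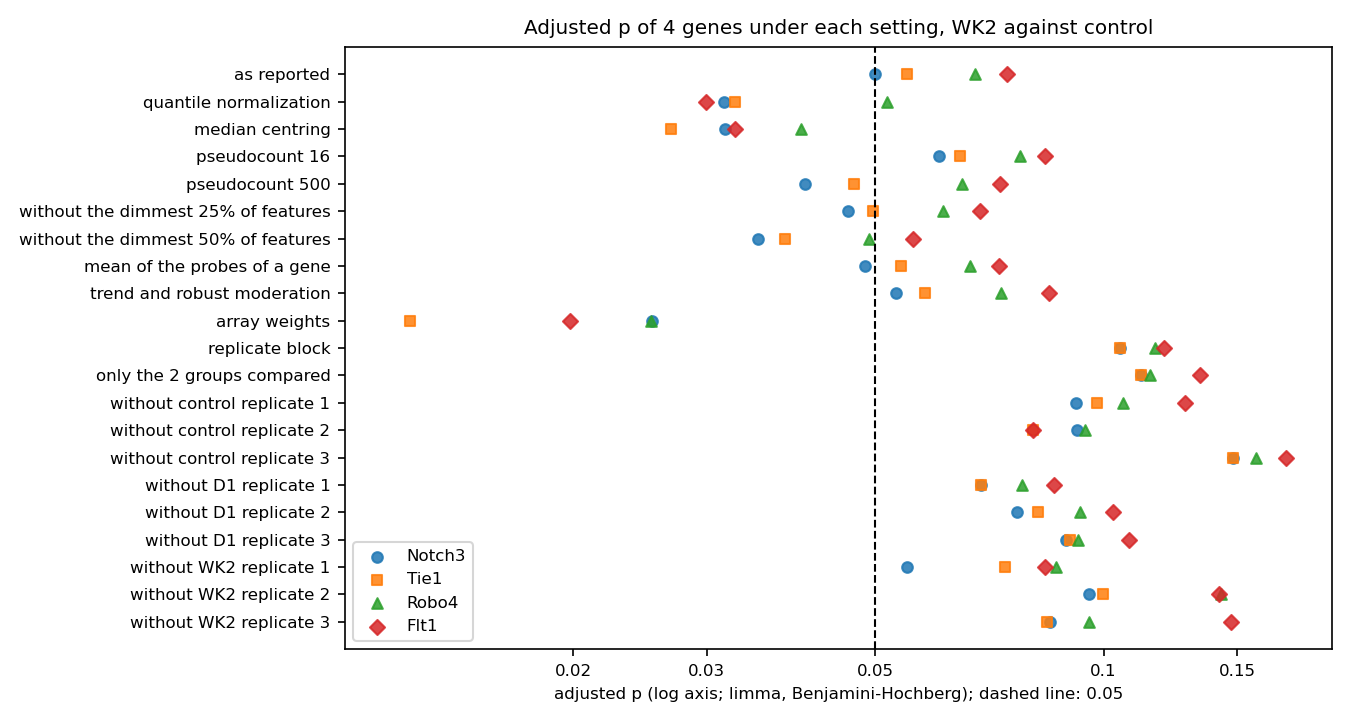
Adjusted p (x axis, log scale) of Notch3, Tie1, Robo4 and Flt1 in WK2 against control as reported and under 20 alternative settings (y axis), with the threshold of 0.05 as a dashed line. Points lie to the right of the line in every setting that leaves out an array.

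The calls of the 4 genes that separated from control depended on the setting while their direction did not. Notch3 passed in 7 of 20 alternatives, Tie1 in 6, and Robo4 and Flt1 in 3 each. All 4 passed with median centring and with array weights. With 9 arrays left out in turn, 0 of the 4 passed, at adjusted p of 0.0550 to 0.174 in limma. Differences ran over all alternatives from -0.93 to -0.69 for Notch3, from -0.98 to -0.66 for Tie1, from -0.77 to -0.53 for Robo4 and from -0.76 to -0.47 for Flt1.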

How the data were processed

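Total RNA of 9 olfactory mucosa samples was amplified and labelled with Cy5 for 1-colour arrays, per the labels' protocols. The authors deposited 1 table of intensity values on a linear scale, with 8 to 18 values below 0 per array. Scanner, background correction, scaling and genome build are not stated, and the table holds no detection calls or batches. Array medians lay within 0.27 of each other on the log2 scale, so values were used as deposited.

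Probes were named through the platform annotation, updated by gene ID through RefSeq (21825 of 21876 probes with 1 symbol; 4547 had none and 0 several), and the brightest probe stood for a gene. Values were tested as log2(intensity + 50) in limma 3.58.1 (R 4.3.3; linear fit with empirical Bayes moderation), in 1 model of 3 groups over all 23631 features. The fit was tested on simulated data. The precision of every value is limited by 3 arrays per group. The 10 genes and the gene lists were chosen with earlier results of these data known.

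Genes named are the 10 members, from each vessel list the 3 genes of smallest p in WK2 against control and any called, and the 8 most alike genes. Alternatives were other scalings, pseudocounts, filters, probe rules, moderation, array weights, a replicate block, fits of 2 groups, an adjusted p under 0.1 and leaving out each array. Glycam1, Ackr1, Aqp4, Hyls1 and Snw1 were named after their values were seen. Gene lists overlap in part: Flt4, Aplnr, Dll4, Heyl, Cldn5, Esam, Icam2, Ptprb and Pdgfra are each in more than 1. Older symbols in the lists were updated through RefSeq. Replicate numbers were not used to pair the samples, except in the alternative with a replicate block.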

Additional observations from a re-analysis of the deposited data

How the results depend on the processing

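Leaving out any 1 array ended the call of Notch3, which stood at an adjusted p of 0.0499 in limma as reported. No array has a measure of background to judge dim probes by. In WK2 against control, the count of the 10 genes called lower (1 as reported) and that of all features (380) were 3 and 1419 under quantile normalization, 4 and 1545 under median centring, and 4 and 2738 with array weights. They were 0 and 131 with a pseudocount of 16, 2 and 777 with 500, 2 and 576 without the dimmest 25% of features, 3 and 1135 without the dimmest 50%, and 0 and 257 with trend and robust moderation. They were 0 and 0 with only the 2 groups compared (5782 features at an unadjusted p under 0.05) and 4 and 3597 at an adjusted p under 0.1. In WK2 against D1, 1 of the 10 genes, Flt1, was called lower under quantile normalization, median centring and array weights, where 75, 50 and 134 features were called beside 22 as reported. All-feature counts there were 13 with a pseudocount of 500, 36 without the dimmest 25%, 2 with only the 2 groups compared and 69 at an adjusted p under 0.1. Cdh5, Pdgfrb, Kdr, Tek, Pecam1 and Rgs5 passed under 0 of their alternatives in any comparison. Tek has no value without the dimmest 50% of features, where it is left out. The cause of these moves was not tested.

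With each array left out in turn, the 10 genes called lower in WK2 against control numbered 0 to 0, all features called 1 to 953, and the median of the 10 genes ran from -0.56 to -0.35. In WK2 against D1 all features called ran from 1 to 27 and the median from -0.52 to -0.32, and in D1 against control 0 to 1 features were called. Some differences changed sign there. Against control they ran in D1 from -0.20 to 0.068 for Tek, -0.081 to 0.15 for Robo4, -0.059 to 0.15 for Pecam1, -0.29 to 0.030 for Cdh5, -0.17 to 0.075 for Pdgfrb and -0.11 to 0.94 for Rgs5. In WK2 they ran from -0.34 to 0.062 for Tek and from -0.16 to 0.048 for Pecam1. In WK2 against D1 they ran from -0.31 to 0.10 for Tek and from -0.17 to 0.55 for Rgs5. Other sign changes were Robo4 in D1 under median centring (-0.039) and array weights (-0.18), Pecam1 in D1 under median centring (-0.010) and the mean of its probes (-0.065), and Pecam1 in WK2 with array weights (0.035).

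With the replicate number as a block, 0 of the 10 genes and 1 feature were called in WK2 against control and 8 features in WK2 against D1. Same-numbered arrays had correlations of -0.28 to 0.14 in their deviations from the group means, so they share only a number. Notch3 had an adjusted p of 0.105 in that fit in limma, and 0 of the list genes called as reported were called.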

Other observations

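Glycam1, a mucin-like ligand of L-selectin known from high endothelial venules, varied widely between arrays of a group. It stood at 3074, 6613 and 85.03 in control, at 83.5, 127 and 82.3 in D1 and at 93.8, 4683 and 97.8 in WK2. Its difference between D1 and control, -3.27 ± 1.53 (SE), had an adjusted p of 1.00 in limma. Ackr1, the chemokine receptor of venules, had a mean of 10575 ± 965 (SD, n = 3) in D1 and 7239 ± 1345 in control, with no overlap between their arrays, and 7882 ± 3482 in WK2. None of these passed.

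Over the 9 arrays the values of Rgs5 were most like those of Aqp4, a water channel (r = 0.97, and 0.97 after group means were subtracted), Hyls1 (0.95 and 0.96) and Snw1 (0.94 and 0.94). These correlations describe 9 arrays that share their groups and were picked as the highest over all named genes.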
